A study of Homo sapiens with 48 samples.

Results

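The genes of melanosome transport and biogenesis described here are RAB27A, MLPH, MYO5A, RAB38, RAB32, HPS1, HPS4, HPS5, BLOC1S1 and LYST. They were followed by name, are 10 of the 58870 genes counted in each of 48 RNA-seq libraries, and were listed by function, with earlier results of these data known. Melanosomes are the lysosome-related organelles in which pigment cells make and store melanin. RAB32 and RAB38 are small GTPases that route melanin-forming enzymes to the maturing organelle, with BLOC-3 (HPS1 with HPS4) as their exchange factor and BLOC-1 and BLOC-2 as further sorting complexes. RAB27A on the mature melanosome binds melanophilin (MLPH), which recruits the motor myosin Va (MYO5A) for movement along actin, and LYST sets the size of lysosome-related organelles. Inherited loss of most of these genes causes Griscelli, Hermansky-Pudlak or Chediak-Higashi syndrome, in which pigment is diluted.

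The uveal melanoma cell lines 92-1, MEL202 and MP41 were used, all labelled wild type. Each line received DMSO or FHT-1015, an inhibitor of SMARCA4 and SMARCA2, the ATPases of BAF chromatin remodelling complexes, for 4 or 24 h. Cells of 92-1 also received IDE196, an inhibitor of protein kinase C (PKC), for 4 or 24 h, beside DMSO libraries of their own. There were 3 replicates, labelled as biological, in each of the 16 groups, numbered 1 to 3 except for the DMSO set of IDE196, which carries 4 to 6. Doses are not stated in the labels, and nothing says whether replicates were separate cultures, so p-values measure the spread between these libraries. An experiment here means the 12 libraries in which 1 drug and its DMSO were given to 1 line.

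Depth ranged from 11394088 to 32317711 reads in genes per library, and the libraries had a read in 17592 to 27150 genes. The summed level of 8 melanocyte lineage genes, MITF and PMEL among them, ran from 2879 to 22320 CPM (read counts scaled to a common library size with edgeR's trimmed mean of M-values), and no library had PMEL at 0. Summed markers reached at most 4.5 CPM for leukocytes, 1.81 CPM for endothelium, 15.1 CPM for fibroblasts and 22.0 CPM for epithelium. In 92-1 the epithelial sum was 0.35 to 1.21 CPM in the FHT-1015 experiment and 2.1 to 22.0 CPM in the IDE196 experiment. In the latter, drug and DMSO overlapped at both times. Of the 10 genes, 9 lay between 6.58 and 603 CPM in every library. BLOC1S1 was the exception, at 0.0879 to 2.69 CPM, or 2 to 49 reads a library. In GENCODE 29 it shares 494 exon bases, 29.8% of its exon length, with the read-through gene BLOC1S1-RDH5 on the same strand. The annotation used for counting is not given in the sources used here, and whether reads were lost to that overlap was not tested, so its values are given for completeness.

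Levels in DMSO were compared between genes per kilobase of exon (CPM per kb), over the 6 DMSO libraries of each line. RAB38 and RAB32 stood first and second in every line. RAB38 was at 279 ± 23.4 CPM per kb in 92-1, 125 ± 14.7 in MEL202 and 340 ± 51.7 in MP41 (mean ± SD, n = 6). RAB32 was at 127 ± 9.86, 52.1 ± 12.7 and 121 ± 16.8 CPM per kb in the same order. The range of RAB32 lay above that of the other 8 genes in each line. MYO5A followed in 92-1 with 27.4 ± 2.44 CPM per kb and in MEL202 with 18.9 ± 6.57, but its 10.2 ± 0.76 in MP41 was sixth. RAB27A was ninth in 92-1 and MEL202, at 4.29 ± 0.609 and 6.29 ± 0.989 CPM per kb, and seventh in MP41, at 7.69 ± 2.13. Neighbours below RAB32 often overlapped in range, as MYO5A and HPS1, HPS4 and LYST, and MLPH and HPS5 did in 92-1. In MEL202 the genes from MYO5A down to HPS5 formed an unbroken run of overlaps, with MLPH, HPS1, LYST and HPS4 between them. In MP41 MLPH came next and stood apart, and HPS5, HPS4, MYO5A, RAB27A, LYST and HPS1 followed with each range overlapping the next.

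The lines differed in which genes they held most of, on the scale of fitted log2 differences between DMSO libraries. Each line was its own experiment, so a difference between lines and one between experiments cannot be told apart. Between MEL202 and 92-1, 8 of the 10 genes differed at an edgeR adjusted p under 0.05, where 52.9% of all tested genes did. Between MP41 and 92-1 the count was 9, against 65.0% of all genes, and between MP41 and MEL202 it was 7, against 56.0%. Most tested genes thus differed between any pair of lines. HPS1 stood at 133 ± 5.08 CPM in 92-1, 81.4 ± 11.7 in MEL202 and 33.4 ± 6.36 in MP41. MP41 against 92-1 was a log2 difference of -1.98 (SE 0.0891, edgeR adjusted p 1.0e-18). MLPH ran the other way, at 73.4 ± 8.82 CPM in 92-1, 122 ± 20.3 in MEL202 and 163 ± 56.7 in MP41. Against 92-1 these were log2 differences of 0.77 and 1.14, while the 2 DMSO sets of 92-1 differed in MLPH by -1.45. RAB27A was lowest in 92-1, and its MP41 and MEL202 levels did not differ at the threshold (log2 0.30, SE 0.161, edgeR adjusted p 0.118). For RAB32 the low line was MEL202, while MP41 and 92-1 differed by -0.04 (SE 0.128, edgeR adjusted p 0.805). HPS5 was higher in MP41 than in the other lines by 0.51 and 0.52, and the other lines differed by -0.01 (SE 0.126, edgeR adjusted p 0.977).

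**Figure D1:**
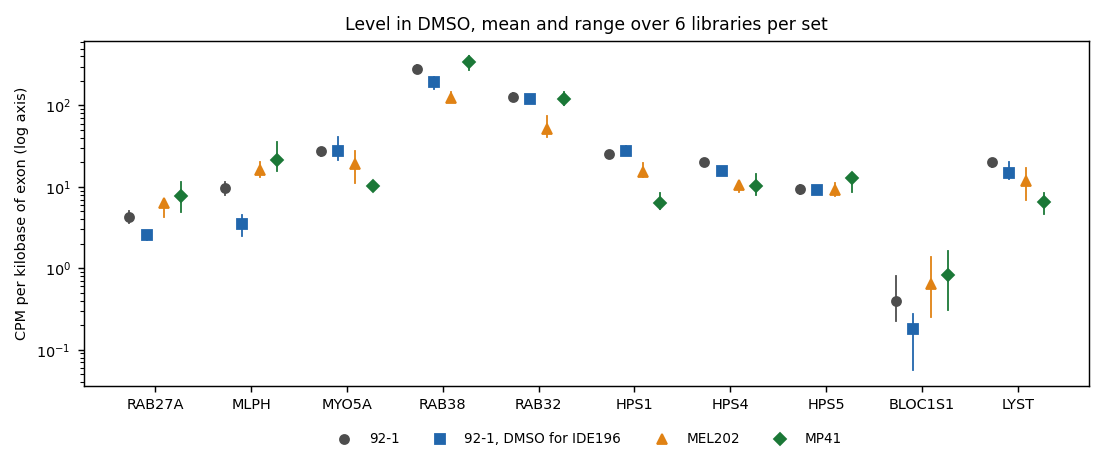
Level of each gene in DMSO libraries, in CPM per kilobase of exon on a log axis; markers are means over 6 libraries and lines run from the lowest to the highest library. RAB38 and RAB32 stand above the other genes in all 4 sets, and BLOC1S1 stands below them.

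The DMSO libraries made for IDE196 also differed from the DMSO libraries of the FHT-1015 experiment in 92-1, in 7 of the 10 genes against 60.4% of all genes. MLPH was at 26.3 ± 5.66 CPM in the IDE196 set and 73.4 ± 8.82 in the other (log2 difference -1.45, SE 0.172, edgeR adjusted p 8.2e-08). RAB27A was at 14.6 ± 1.42 against 24.0 ± 3.41 CPM. The experiment and these levels cannot be told apart, so each drug was read only against its own DMSO.

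Most of these genes were lower with FHT-1015 at 24 h in every line. Called at an edgeR adjusted p under 0.05, 9 of 10 genes fell in 92-1, 6 of 10 in MEL202 and 7 of 10 in MP41, and none rose. At an unadjusted p under 0.05, 0, 1 and 0 rose in the same order, the 1 being HPS5 in MEL202, while DESeq2 called no rise and limma-voom called that of HPS5. Over all tested genes 31.4% fell and 29.2% rose in 92-1, 10.1% fell and 8.69% rose in MEL202, and 18.7% fell and 17.4% rose in MP41. RAB27A, MLPH, RAB38, RAB32, HPS4 and LYST fell in all 3 lines, which is 6 of 10, where 7.65% of the genes tested in each line did so. The median log2 fold change of the 10 genes was -1.05 in 92-1, -0.98 in MEL202 and -1.09 in MP41, beside medians of -0.00082, -0.0055 and 0.07 over all genes. In bulk RNA, fewer cells with a transcript and less transcript per cell cannot be told apart. The summed level of the 3 fibroblast markers was higher with FHT-1015 at 24 h, at 3.07 to 5.07 CPM against 1.15 to 1.36 in 92-1, 3.74 to 4.82 against 1.28 to 2.30 in MEL202 and 12.8 to 15.1 against 4.8 to 12.6 in MP41, with DCN among them at 0 in 13 of the 48 libraries. Its part in these results was not tested.

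At 4 h the fall was called in 92-1 alone. There 7 of 10 genes were lower and 0 higher, where 16.7% of all genes fell and 12.9% rose, with a median of -0.47 for the 10 genes and 0.01 for all. With all 48 libraries in 1 fit the count was 3, as RAB38, RAB32, MYO5A and LYST lost their calls (edgeR adjusted p 0.0673 to 0.504). In MEL202 at 4 h 0 of 10 were called, where 0.522% of all genes fell and 0.157% rose, and the 10 genes had a median of -0.28. In MP41 0 of 10 were called, where 0.154% fell and 0.0708% rose, and the median was -0.33. At an unadjusted p under 0.05, 1 gene was lower in MEL202 and 3 in MP41, and limma-voom called 0 and 3. The MP41 count was 2 without DMSO 24 h replicate 2, with MLPH and LYST, and 1 without DMSO 24 h replicate 3, with LYST. None of the 10 genes differed among the lines at 4 h in a direct test, in which 1.38% of all genes did (1 at an unadjusted p under 0.05, 0 by DESeq2 and 2 by limma-voom), so the early effect is not shown to be particular to 92-1. In MEL202 at 4 h MLPH was also called with all 48 libraries in 1 fit (edgeR adjusted p 0.0332). DESeq2 called MLPH in MEL202 (adjusted p 0.0053) and LYST in MP41 (adjusted p 0.0289) at 4 h, which edgeR did not (adjusted p 0.101 and 0.176).

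**Figure D2:**
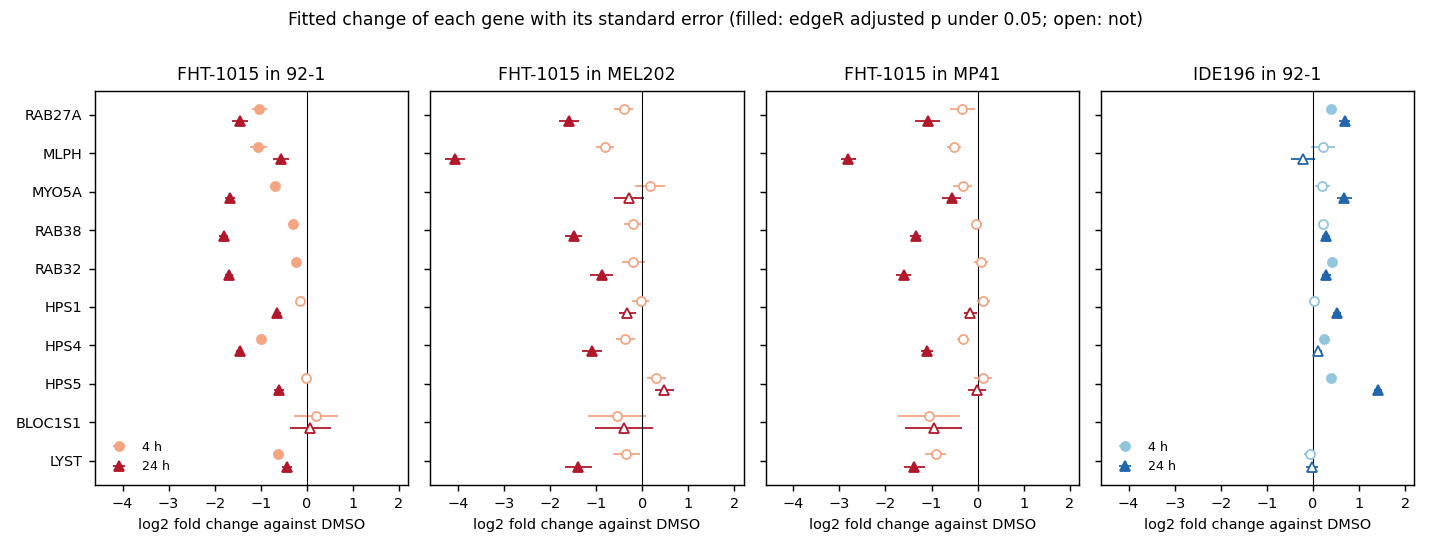
Fitted log2 fold change of each gene against its own DMSO with its standard error, by experiment; circles are 4 h, triangles are 24 h, and filled markers passed an edgeR adjusted p of 0.05. FHT-1015 values at 24 h lie at or left of 0 except for HPS5 in MEL202 (0.48) and BLOC1S1 in 92-1 (0.07), and the filled IDE196 values all lie right of 0.

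RAB27A (chr15:55202966-55319113, minus strand), the GTPase that marks the mature melanosome for capture, was at 27.2, 20.2 and 20.1 CPM in the 92-1 DMSO libraries at 24 h and at 9.75, 8.56 and 6.58 with FHT-1015. In MEL202 the values were 37.5, 37.7 and 37.2 CPM in DMSO and 12.9, 12.6 and 11.8 with FHT-1015. In MP41 they were 43.7, 27.0 and 69.5 CPM in DMSO and 16.8, 26.0 and 23.5 with FHT-1015. Treated and DMSO libraries did not overlap in any line, although in MP41 the highest treated and the lowest DMSO library were 26.0 and 27.0 CPM. The log2 fold changes were -1.45 in 92-1 (SE 0.174, edgeR adjusted p 3.1e-06), -1.59 in MEL202 (SE 0.211, edgeR adjusted p 0.000177) and -1.08 in MP41 (SE 0.273, edgeR adjusted p 0.0076). At 4 h in 92-1 it had already gone from 24.0, 26.6 and 24.0 CPM to 13.4, 13.4 and 9.37 (log2 -1.03, SE 0.164, edgeR adjusted p 0.000202). The effects in the 3 lines at 24 h did not differ at the threshold (edgeR adjusted p 0.587).

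MLPH, the linker between RAB27A and the motor (chr2:237485428-237555318, plus strand), had the largest fall of the 10 genes in MEL202 and in MP41 at 24 h. The 250 bases before a RefSeq start of MLPH (chr2:237487001-237487250, plus strand, GRCh38.p14) are shown beside those of HPS5 (chr11:18322141-18322390, minus strand), since at 24 h MLPH moved most with FHT-1015 in MEL202 and MP41, and HPS5 most with IDE196. Capitals mark CACGTG, the letters of the E-box that MITF and related factors bind.
MLPH: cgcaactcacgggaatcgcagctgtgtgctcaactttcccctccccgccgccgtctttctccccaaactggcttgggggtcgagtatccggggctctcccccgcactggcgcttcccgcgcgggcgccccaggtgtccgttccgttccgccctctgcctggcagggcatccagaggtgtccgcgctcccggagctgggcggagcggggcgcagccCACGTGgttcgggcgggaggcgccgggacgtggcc
HPS5: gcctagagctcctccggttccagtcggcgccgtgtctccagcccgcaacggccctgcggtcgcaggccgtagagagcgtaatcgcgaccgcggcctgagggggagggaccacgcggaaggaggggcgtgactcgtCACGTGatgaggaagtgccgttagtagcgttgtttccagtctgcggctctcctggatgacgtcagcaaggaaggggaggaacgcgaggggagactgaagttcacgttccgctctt
The match starts 35 bases before this start in MLPH, whose other RefSeq window holds no CACGTG, and 115 bases before the start in HPS5. Windows from 250 bases before to 50 after each RefSeq start were searched on both strands for CACGTG, which reads the same on either strand, and for CATGTG with its reverse CACATG. RefSeq windows were matched by symbol for 8 of the 10 genes, 19 windows in all, and not for RAB38 and HPS1. CACGTG was found in MLPH, HPS5 and BLOC1S1 and CATGTG in HPS4 and LYST, so 7 of 19 windows held either, where 17.6% of 35116 windows of all genes did (7.26% for CACGTG and 11.1% for CATGTG). Windows of 1 gene can overlap, and the LYST matches 35 and 40 bases before 2 starts are the same site. The HPS4 matches, which lie in overlapping windows, are likewise 1 site, so the matching windows are not all separate sites. By gene, 5 of the 8 had a match in any window, where 20.9% of 27305 genes did. The 8 genes had more windows per gene (19 in all) than the 27305 genes (35116), so these shares are not like for like. RAB27A, RAB32 and MYO5A had neither in these windows. A match describes letters only, and binding was not measured.

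With FHT-1015 for 24 h, MLPH went from 145, 99.7 and 109 CPM to 7.28, 7.03 and 6.83 in MEL202. In MP41 it went from 196, 263 and 173 CPM to 33.2, 27.4 and 29.6. In 92-1 the DMSO libraries held 72.4, 86.2 and 78.3 CPM and the treated ones 35.8, 56.2 and 67.8. Every treated library lay below every DMSO library of its line, by a wide margin in MEL202 and MP41 and narrowly in 92-1. The log2 fold changes were -4.06 in MEL202 (SE 0.224, edgeR adjusted p 1.1e-07), -2.81 in MP41 (SE 0.166, edgeR adjusted p 1.2e-07) and -0.57 in 92-1 (SE 0.18, edgeR adjusted p 0.0128). Without the first FHT-1015 replicate of 92-1 at 24 h, that last change was -0.34 with an edgeR adjusted p of 0.0573, and with all 48 libraries in 1 fit it was -0.54 with an edgeR adjusted p of 0.0553. The 3 effects differed in a direct test among the lines (edgeR adjusted p 2.1e-10). At that time point 4 of the 10 genes differed among lines, where 12% of all genes did, and 2 without 92-1 DMSO 24 h replicate 1. DESeq2 called 5 and limma-voom 9. Where effects at 24 h are said not to differ among lines, this means that edgeR did not call them.

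MLPH was also followed over time within each line. In 92-1 it was already lower at 4 h, from 58.3, 70.0 and 70.0 CPM to 25.5, 34.9 and 35.5 (log2 -1.05, SE 0.182, edgeR adjusted p 0.000429), a larger fitted fall than at 24 h, although the times did not differ at the threshold (0.49, SE 0.255, edgeR adjusted p 0.134). In MEL202 the 4 h values were 157, 112 and 124 CPM in DMSO and 74.9, 75.2 and 75.3 with FHT-1015, without overlap (log2 -0.80, SE 0.198, edgeR adjusted p 0.101). The effect at 24 h minus that at 4 h was -3.26 in MEL202 (SE 0.287, edgeR adjusted p 5.7e-05) and -2.30 in MP41 (SE 0.222, edgeR adjusted p 2.9e-05).

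MYO5A, the motor (chr15:52307283-52529050, minus strand), fell most in 92-1. There the DMSO libraries held 370, 320 and 315 CPM at 24 h and the treated ones 96.0, 102 and 117, without overlap (log2 -1.67, SE 0.107, edgeR adjusted p 3.0e-09). At 4 h it had gone from 359, 380 and 360 CPM to 248, 240 and 192 (log2 -0.69, SE 0.104, edgeR adjusted p 0.000123). In MP41 at 24 h the values were 139, 140 and 152 CPM in DMSO and 125, 88.2 and 78.9 with FHT-1015 (log2 -0.56, SE 0.208, edgeR adjusted p 0.0499). Leaving out a library ended that call in 6 of 12 cases, namely DMSO 4 h replicates 1, 2 and 3, DMSO 24 h replicate 1 and FHT-1015 24 h replicates 2 and 3, with edgeR adjusted p from 0.0626 to 0.184, and so did a replicate block (edgeR adjusted p 0.0652), the sum of the stranded columns (0.0588) and a fit of the 6 libraries alone (0.0648). The effects among lines at 24 h differed (edgeR adjusted p 0.0189).

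In MEL202 MYO5A was not called at 24 h (log2 -0.28, SE 0.328, edgeR adjusted p 0.616), and its DMSO libraries ranged widely, at 174, 332 and 231 CPM against 216, 185 and 205 with FHT-1015. MYO5A has 12988 bases of exon and LYST 19614, the longest of the 10, and in MEL202 the 1369 expressed genes with over 10 kb of exon moved together from library to library. Their median deviation from the gene means was -0.47 on the log2 scale in DMSO 4 h replicate 3, where MYO5A stood at 150 CPM, and 0.28 in DMSO 4 h replicate 2, where it stood at 357. In 92-1 the same median stayed between -0.19 and 0.07 in its FHT-1015 experiment. The lowest was FHT-1015 4 h replicate 3, which had the least MYO5A and LYST of that time, 192 and 229 CPM. DMSO libraries of that time were at 0.03 to 0.06. In MP41 the median ran from -0.19 in DMSO 24 h replicate 2 to 0.25 in FHT-1015 24 h replicate 1. The first had the least LYST of the DMSO libraries at 24 h, 90.8 CPM. The second had the most MYO5A of the treated libraries at 24 h, 125 CPM. FHT-1015 4 h replicate 1 was also at -0.19, with the least MYO5A and LYST of the MP41 libraries at 4 h, 79.3 and 52.6 CPM. With offsets for exon length, chosen after seeing the data, the MP41 changes at 24 h were -0.73 for MYO5A (edgeR adjusted p 0.0032) and -1.56 for LYST (edgeR adjusted p 1.6e-05). With the same offsets the 92-1 changes at 4 h were -0.60 for MYO5A (edgeR adjusted p 3.7e-05) and -0.53 for LYST (edgeR adjusted p 0.000127). Leaving out 1 library moved the MEL202 value of MYO5A to -0.48 (without DMSO 24 h replicate 1) or -0.0078 (without DMSO 24 h replicate 2), uncalled in each of the 12 fits. In MEL202 MYO5A was again not called with these offsets, and the part of the deviation in its result was not tested further.

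**Figure D3:**
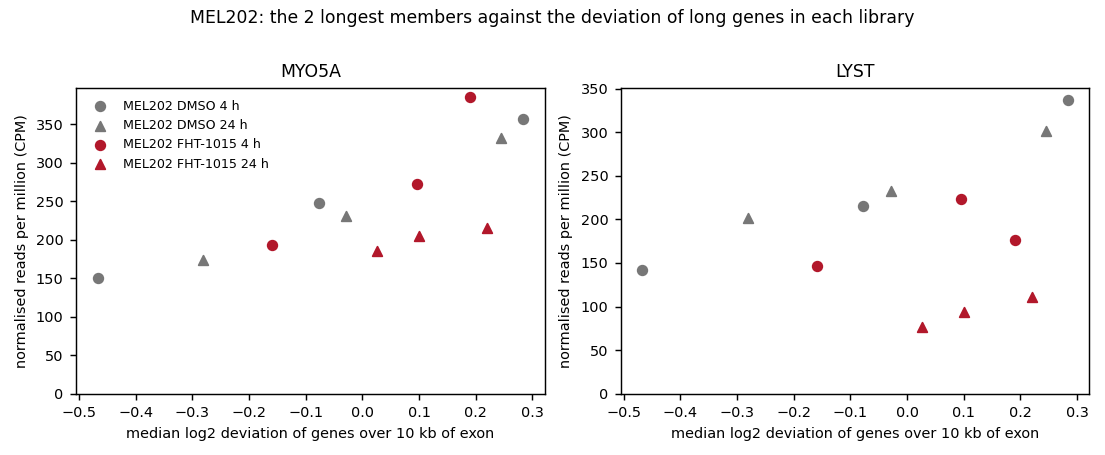
CPM of MYO5A and LYST in the 12 MEL202 libraries against the median log2 deviation of genes with over 10 kb of exon in the same library. MYO5A in DMSO runs from 150 CPM at a deviation of -0.47 to 357 CPM at 0.28, and LYST after 24 h of FHT-1015 lies below all DMSO libraries at 76.5 to 111 CPM.

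**Figure D4:**
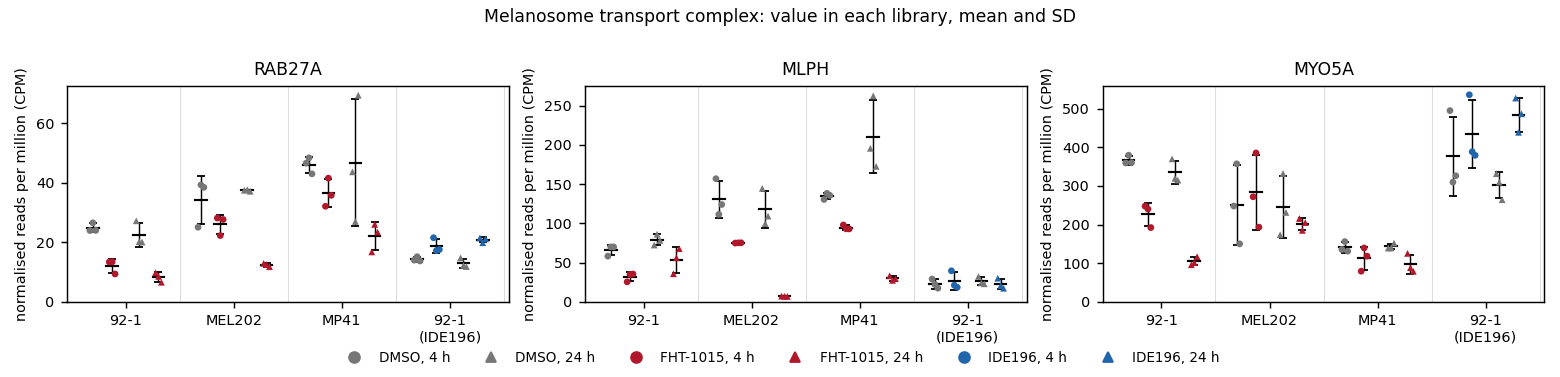
CPM of RAB27A, MLPH and MYO5A in each of the 48 libraries, with group means (bars) and SDs (whiskers); circles are 4 h and triangles 24 h. MLPH with FHT-1015 at 24 h is at 6.83 to 7.28 CPM in MEL202, and MYO5A in 92-1 falls with FHT-1015 and is above DMSO with IDE196 at 24 h.

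RAB38 (chr11:88113242-88175467, minus strand) and RAB32 (chr6:146543693-146554965, plus strand), the cargo GTPases, changed mainly by 24 h. In 92-1 at 24 h RAB38 was at 437, 388 and 443 CPM in DMSO and 106, 123 and 133 with FHT-1015 (log2 -1.81, SE 0.0942, edgeR adjusted p 3.2e-10). In MEL202 it was at 176, 174 and 211 CPM against 61.9, 69.9 and 68.1 (log2 -1.49, SE 0.19, edgeR adjusted p 0.000134). In MP41 it was at 603, 579 and 579 CPM against 230, 229 and 235 (log2 -1.34, SE 0.115, edgeR adjusted p 1.9e-06). No treated library came near a DMSO library in any line, and the effects did not differ among lines at the threshold (edgeR adjusted p 0.315). At 4 h RAB38 had changed in 92-1 by -0.31 on the log2 scale (SE 0.0908, edgeR adjusted p 0.0174). That call was lost without DMSO 4 h replicate 2 or 3 or FHT-1015 4 h replicate 2 (edgeR adjusted p 0.0672, 0.0638 and 0.0586).

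RAB32 fell at 24 h in all 3 lines. It went from 145, 145 and 160 CPM to 48.6, 46.4 and 44.4 in 92-1 at 24 h (log2 -1.69, SE 0.09, edgeR adjusted p 4.1e-10), and from 174, 175 and 132 CPM to 46.2, 64.1 and 48.3 in MP41 (log2 -1.60, SE 0.165, edgeR adjusted p 8.4e-06). In MEL202, the line with least RAB32, it went from 55.6, 52.7 and 64.0 CPM to 27.3, 34.6 and 31.9 (log2 -0.88, SE 0.251, edgeR adjusted p 0.0254). The groups did not overlap in any line, and the effects did not differ among lines at the threshold (edgeR adjusted p 0.0514). The MEL202 call was lost in 5 of 12 fits, those without DMSO 24 h replicate 1 or 3 or any FHT-1015 24 h replicate (edgeR adjusted p 0.0605 to 0.116). At 4 h in 92-1 the change of -0.24 (SE 0.0858, edgeR adjusted p 0.0478) held only in the fits without replicate 1 of DMSO 4 h, DMSO 24 h or FHT-1015 24 h. The other 9 fits gave an edgeR adjusted p of 0.0501 to 0.248, and 5 of 10 other settings ended the call too (0.0601 to 0.504). Without DMSO 4 h replicate 2 the change was -0.15.

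The change from 4 to 24 h was tested directly. In 92-1 the FHT-1015 effect moved further down in RAB38 (log2 difference -1.50, SE 0.13, edgeR adjusted p 3.1e-07) and in RAB32 (-1.45, SE 0.124, edgeR adjusted p 2.6e-07). With MYO5A, HPS1, HPS4 and HPS5 that made 6 of 10 genes, where 45.5% of all genes differed between the times. In MEL202 3 of 10 did, RAB27A, MLPH and RAB38, against 6.89% of all genes. In MP41 4 of 10 did, MLPH, RAB38, RAB32 and HPS4, against 18.6%. The MP41 count was 7 by limma-voom, and the MEL202 count was 6 with all 48 libraries in 1 fit.

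HPS4 (chr22:26443423-26483837, minus strand) and HPS1 (chr10:98416198-98446947, minus strand) are the subunits of BLOC-3. HPS4 was at 222, 226 and 220 CPM in 92-1 DMSO at 24 h and at 82.3, 83.9 and 77.6 with FHT-1015 (log2 -1.46, SE 0.0754, edgeR adjusted p 3.0e-10). MEL202 libraries held 112, 126 and 120 CPM in DMSO and 57.7, 57.2 and 53.8 when treated (log2 -1.08, SE 0.216, edgeR adjusted p 0.00324). Those of MP41 held 128, 153 and 125 CPM in DMSO and 67.8, 60.5 and 61.4 when treated (log2 -1.10, SE 0.131, edgeR adjusted p 3.0e-05). Treated libraries held fewer HPS4 CPM than any DMSO library in each line, and the lines' effects did not differ at the threshold (edgeR adjusted p 0.461). It was also the most firmly called of the 10 genes at 4 h in 92-1, where 205, 202 and 215 CPM became 107, 108 and 95.2 (log2 -1.003, SE 0.0741, edgeR adjusted p 9.2e-08). HPS4 shares 598 exon bases, 5.55% of its exon length, with ASPHD2 on the other strand, and the counts carry no strand.

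HPS1 fell in 92-1 at 24 h, from 133, 130 and 131 CPM to 83.2, 82.0 and 86.4 (log2 -0.64, SE 0.0721, edgeR adjusted p 1.5e-06). In MEL202 its libraries did not overlap either, at 84.4, 70.2 and 75.2 CPM against 62.7, 58.4 and 62.3, but the change of -0.33 was not called (SE 0.185, edgeR adjusted p 0.259). It was called by limma-voom (adjusted p 0.00813) and by edgeR on all 48 libraries or on the 6 alone (adjusted p 0.0167 and 0.0445). In MP41 HPS1 values overlapped, at 38.6, 43.6 and 37.2 CPM in DMSO and 32.7, 38.4 and 35.8 with FHT-1015 (log2 -0.16, SE 0.136, edgeR adjusted p 0.38). The lines' effects on HPS1 did not differ at the threshold (edgeR adjusted p 0.263).

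HPS5 (chr11:18278668-18322198, minus strand), a subunit of BLOC-2, did not move alike in the lines. It fell in 92-1 at 24 h from 65.5, 53.1 and 58.3 CPM to 42.0, 36.9 and 37.7 (log2 -0.60, SE 0.106, edgeR adjusted p 0.000144). In MEL202 the treated libraries, at 84.9, 82.6 and 85.4 CPM, all lay above the DMSO libraries at 52.8, 65.1 and 63.8 (log2 0.48, SE 0.207, edgeR adjusted p 0.132). MP41 libraries overlapped widely, at 93.6, 55.0 and 105 CPM against 98.2, 77.3 and 74.7 (log2 -0.02, SE 0.201, edgeR adjusted p 0.954). The effects differed among the lines (edgeR adjusted p 0.0159). In MEL202 the rise was called by limma-voom (adjusted p 0.000877) and by edgeR on the 6 libraries alone or on all 48 (adjusted p 0.0117 and 0.0247).

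LYST (chr1:235661041-235883640, minus strand), which keeps lysosome-related organelles from fusing into giant ones, fell in all 3 lines at 24 h. MEL202 had 202, 301 and 232 CPM in DMSO and 111, 76.5 and 93.8 when treated (log2 -1.39, SE 0.299, edgeR adjusted p 0.00534). MP41 had 136, 90.8 and 181 CPM in DMSO and 57.3, 47.8 and 52.2 when treated (log2 -1.37, SE 0.231, edgeR adjusted p 0.000471). In 92-1 the step was from 391, 343 and 381 CPM to 234, 282 and 311 (log2 -0.43, SE 0.108, edgeR adjusted p 0.00287). Fitting all 48 libraries at once ended that call (edgeR adjusted p 0.156). Groups did not overlap, although the DMSO libraries of MEL202 and MP41 spread over a wide range. The effects differed among lines at the edge of the threshold (edgeR adjusted p 0.0492). LYST was lower in 92-1 by 4 h, from 393, 393 and 425 CPM to 294, 261 and 229 (log2 -0.63, SE 0.108, edgeR adjusted p 0.000437), and this call was lost in the fit of 48 as well (edgeR adjusted p 0.0785). In MP41 at 4 h its values of 134, 141 and 136 CPM became 52.6, 86.1 and 79.9, without overlap, and the change of -0.91 was not called (SE 0.229, edgeR adjusted p 0.176). It was called without DMSO 24 h replicate 2 or 3 (edgeR adjusted p 0.0165 and 0.0205). It was also called by limma-voom (adjusted p 9.9e-05), and by edgeR without a filter or on the 6 libraries alone (adjusted p 0.00128 and 0.00794). With offsets for exon length the change was -0.75 and uncalled (edgeR adjusted p 0.126). The library at 52.6 CPM was the one of that time lowest in long genes.

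BLOC1S1 (chr12:55716037-55720087, plus strand), a BLOC-1 subunit, was not called with FHT-1015 in any line or time, with log2 fold changes from -1.05 to 0.19 and SEs from 0.447 to 0.679.

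**Figure D5:**
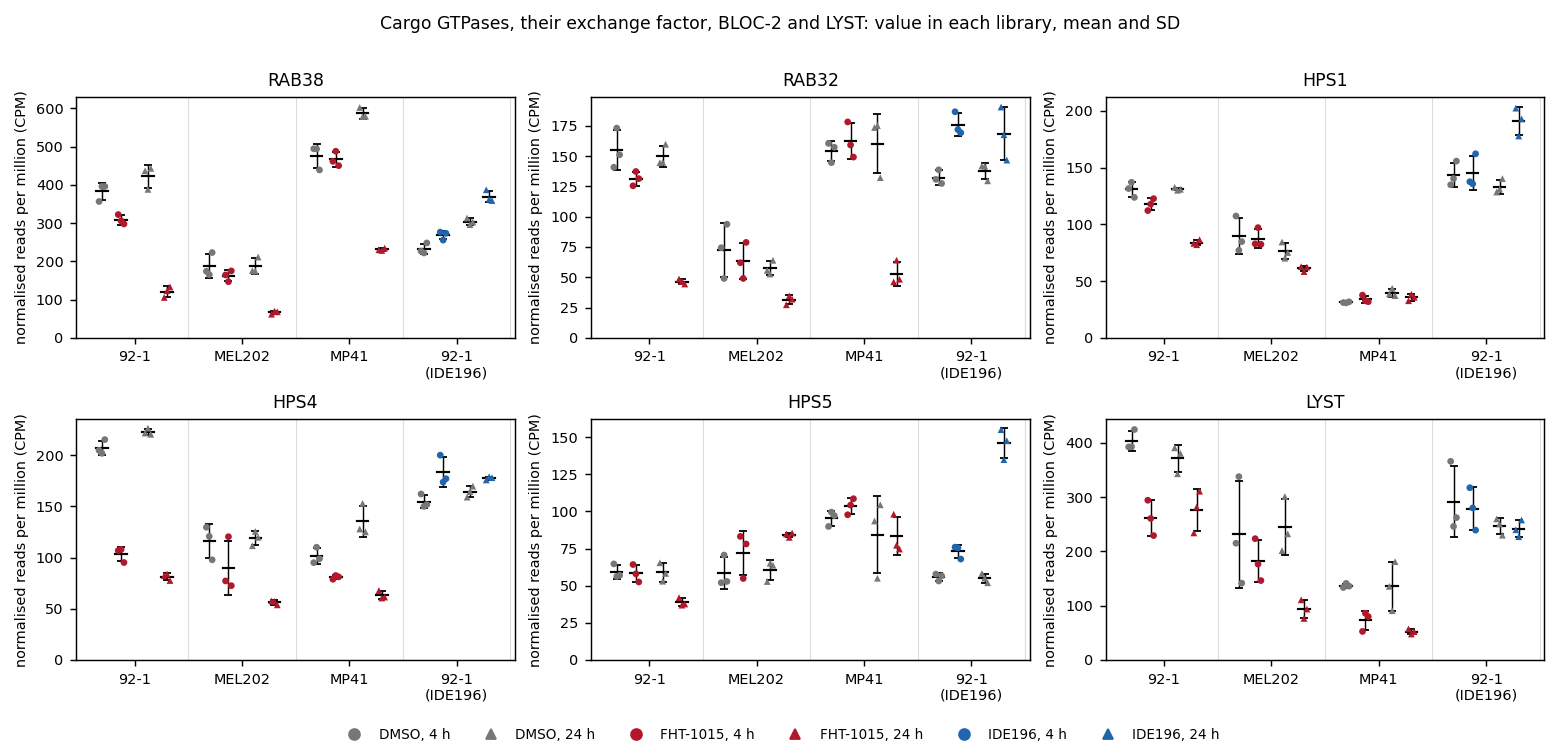
CPM of RAB38, RAB32, HPS1, HPS4, HPS5 and LYST in each of the 48 libraries, with group means (bars) and SDs (whiskers); circles are 4 h and triangles 24 h. RAB38, RAB32, HPS4 and LYST are lower with FHT-1015 at 24 h in each line, and HPS5 with IDE196 at 24 h is at 135 to 155 CPM against 52.0 to 58.2 in DMSO.

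IDE196 moved these genes up or left them uncalled in 92-1. BLOC1S1 was too low to be tested. At 4 h 4 of 9 genes rose and 0 fell by edgeR, where 6.89% of all genes rose and 9.3% fell, with a median of 0.22 for the 9 genes and 0.01 for all. That count was 2 without DMSO 4 h replicate 6 or IDE196 4 h replicate 1, and 0 with all 48 libraries in 1 fit. At 24 h 6 of 9 rose and 0 fell, where 28.7% rose and 29.4% fell, with medians of 0.29 and 0.03. No gene of the 9 was lower at an unadjusted p under 0.05 or by DESeq2 or limma-voom at either time.

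HPS5 made the largest step at 24 h. It went from 57.8, 53.2 and 56.6 CPM to 76.0, 75.5 and 68.0 at 4 h (log2 0.39, SE 0.0858, edgeR adjusted p 0.00404). At 24 h the values were 58.2, 55.1 and 52.0 CPM in DMSO and 155, 135 and 148 with IDE196 (log2 1.40, SE 0.0864, edgeR adjusted p 5.4e-10). The IDE196 effect on HPS5 grew by 1.01 from 4 to 24 h (SE 0.121, edgeR adjusted p 7.9e-06), and for HPS1 the growth was 0.51 (SE 0.129, edgeR adjusted p 0.00633). Those were 2 of 9 genes, where 30.7% of all genes differed between the times. HPS1 was at 128, 131 and 140 CPM in DMSO at 24 h and 202, 178 and 193 with IDE196 (log2 0.52, SE 0.0912, edgeR adjusted p 0.0001).

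RAB27A rose from 14.8, 12.2 and 11.9 CPM to 21.5, 19.9 and 21.2 at 24 h with IDE196 (log2 0.69, SE 0.12, edgeR adjusted p 9.6e-05). MYO5A rose from 332, 310 and 264 CPM to 527, 439 and 487 (log2 0.68, SE 0.161, edgeR adjusted p 0.00151). The median deviation of genes with over 10 kb of exon was -0.14 to -0.04 in these DMSO libraries and -0.029 to 0.14 with IDE196, without overlap, and with offsets for exon length the MYO5A change was 0.55 (edgeR adjusted p 0.001). Their partner MLPH did not follow: its libraries overlapped at 32.4, 24.2 and 23.0 CPM against 30.1, 20.6 and 17.3 (log2 -0.22, SE 0.255, edgeR adjusted p 0.48). RAB38 rose by 0.28 (SE 0.0774, edgeR adjusted p 0.00472) and RAB32 too, by 0.29 (SE 0.0932, edgeR adjusted p 0.0132). RAB32 lost its call without DMSO 24 h replicate 6 or IDE196 24 h replicate 1 (edgeR adjusted p 0.0639 and 0.104) and with all 48 libraries in 1 fit (edgeR adjusted p 0.102). LYST differed by -0.03 at 24 h (SE 0.13, edgeR adjusted p 0.858) and HPS4 by 0.11 (SE 0.0784, edgeR adjusted p 0.236). With offsets for exon length, chosen after seeing the data, LYST was called lower at 24 h (log2 -0.27, edgeR adjusted p 0.0108).

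The other rises at 4 h were small. RAB32 went from 131, 139 and 127 CPM to 187, 172 and 169 (log2 0.41, SE 0.0932, edgeR adjusted p 0.00498). RAB27A rose by 0.39 (SE 0.119, edgeR adjusted p 0.03) and HPS4 by 0.25 (SE 0.0784, edgeR adjusted p 0.0384), and neither group overlapped its DMSO. The RAB27A call was lost without DMSO 4 h replicate 4 or 6 or IDE196 4 h replicate 1 (edgeR adjusted p 0.0676 to 0.172). For HPS4 it was lost in 6 of 12 fits, without DMSO 4 h replicate 5 or 6, DMSO 24 h replicate 5, IDE196 4 h replicate 1 or 3, or IDE196 24 h replicate 2 (edgeR adjusted p 0.0576 to 0.193).

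The drugs were set against each other as the difference of their effects in 92-1, each against its own DMSO. At 4 h 8 of 10 genes differed, all lower with FHT-1015, where 24.6% of all genes differed. Without IDE196 4 h replicate 1 the count was 5, and with all 48 libraries in 1 fit it was 4. At 24 h 7 of 10 did, again all lower with FHT-1015, where 33.0% did. The widest differences at 24 h were those of MYO5A (-2.36, SE 0.211, edgeR adjusted p 9.2e-10), RAB27A (-2.14, SE 0.214, edgeR adjusted p 7.8e-09), RAB38 (-2.09, SE 0.121, edgeR adjusted p 1.6e-13) and HPS5 (-2.01, SE 0.133, edgeR adjusted p 2.7e-12). MLPH differed at 4 h (-1.27, SE 0.345, edgeR adjusted p 0.00685) and not at the threshold at 24 h (-0.35, SE 0.343, edgeR adjusted p 0.486).

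MITF and SOX10, regulators of pigment cell genes, were read beside these values. With FHT-1015 at 24 h MITF changed by -1.65 in 92-1, -1.91 in MEL202 and -2.56 in MP41, and SOX10 by -4.69, -5.43 and -4.74 (the highest edgeR adjusted p was 0.000106). At 4 h SOX10 had already changed by -4.94, -3.03 and -2.26 (highest edgeR adjusted p 0.000449), while MITF was not called in any line. The summed level of the 8 lineage markers, these 2 among them, was 4741 to 5226 CPM in 92-1 after 24 h of FHT-1015 and 19210 to 22320 in DMSO. IDE196 changed SOX10 by 0.67 at 24 h (SE 0.0785, edgeR adjusted p 1.2e-06) and MITF by 0.10 (SE 0.0867, edgeR adjusted p 0.356), after a change of MITF by -0.56 at 4 h (SE 0.0871, edgeR adjusted p 0.000209). The marker sum at 24 h was 16880 to 19040 CPM with IDE196 and 15860 to 18450 in DMSO. The part of either regulator in the values of the 10 genes was not tested.

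Further genes of these pathways were read from lists, which held 28 genes, namely other BLOC-1 subunits (7), other BLOC-2 subunits (2), AP-3 subunits (5), other transport genes (8) and partners of cargo delivery (6). With FHT-1015 at 24 h, 12 of 25 tested fell and 3 rose in 92-1, 4 of 25 fell and 1 rose in MEL202, and 7 of 26 fell and 6 rose in MP41. Over all tested genes 31.4% fell and 29.2% rose in 92-1, 10.1% fell and 8.69% rose in MEL202, and 18.7% fell and 17.4% rose in MP41. At 4 h 9 fell and 2 rose in 92-1, 1 fell and 0 rose in MEL202 and 0 were called in MP41, where 3 were lower at an unadjusted p under 0.05. All-gene shares at 4 h were 16.7% lower and 12.9% higher in 92-1, 0.522% and 0.157% in MEL202, and 0.154% and 0.0708% in MP41. These counts are edgeR's. Their median log2 fold changes at 24 h were -0.17, -0.0022 and 0.11 in the lines in that order. Of the 7 other BLOC-1 subunits, 3 fell and 1 rose in 92-1 at 24 h, 0 were called in MEL202 (1 was lower at an unadjusted p under 0.05), and 2 fell and 2 rose in MP41. Both other BLOC-2 subunits fell in 92-1 and 0 were called in the other lines, also at an unadjusted p under 0.05. Of the 5 AP-3 subunits, 2 fell in 92-1, 0 were called in MEL202, also unadjusted, and 1 fell and 2 rose in MP41.

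Of the 24 list genes tested in each line, 3 fell in all 3 lines at 24 h, where 7.65% of all genes tested in each line did. STX3, a syntaxin of membrane fusion, went from 162 ± 13.5 to 36.4 ± 3.37 CPM in 92-1, 78.4 ± 8.44 to 19.9 ± 2.12 CPM in MEL202, and 57.3 ± 12.3 to 15.0 ± 1.32 CPM in MP41 (mean ± SD, n = 3, highest edgeR adjusted p 3.0e-05). STX3 had changed at 4 h by -1.46 in 92-1 (edgeR adjusted p 2.7e-08) and -1.15 in MEL202 (edgeR adjusted p 0.0182). In MP41 its change of -0.67 at 4 h was not called (edgeR adjusted p 0.16). ANKRD27, which binds RAB32 and RAB38 and is also called VARP, changed by -0.75, -0.61 and -0.92 in the same order of lines (highest edgeR adjusted p 0.0406). RAB17, a GTPase of melanosome release, changed by -0.42, -1.66 and -0.52 (highest edgeR adjusted p 0.0324).

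With IDE196 3 of 25 genes of the lists rose and 1 fell at 4 h, and 8 rose and 5 fell at 24 h. Of all genes 6.89% rose and 9.3% fell at 4 h, and 28.7% rose and 29.4% fell at 24 h, so the 24 h counts were near the shares over all genes. EXPH5, a RAB27 effector, rose most at 4 h, from 1.86 ± 0.149 to 4.89 ± 0.898 CPM (log2 1.39, SE 0.257, edgeR adjusted p 0.000979), and BLOC1S4, a BLOC-1 subunit, was the only one to fall (-0.62, SE 0.172, edgeR adjusted p 0.0179). At 24 h MREG, melanoregulin, a melanosome transport protein, rose most, from 22.1 ± 2.73 to 52.2 ± 3.07 CPM (log2 1.24, SE 0.119, edgeR adjusted p 1.1e-07). RAB17 fell most, from 13.3 ± 1.15 to 5.37 ± 0.271 CPM (log2 -1.31, SE 0.155, edgeR adjusted p 1.4e-06). STX3 changed by -0.84 with IDE196 (SE 0.0902, edgeR adjusted p 4.4e-07).

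Likeness of pattern was measured as Pearson's r over the 8 fitted log2 fold changes of each drug, line and time. Genes outside the set were compared if protein-coding, tested in all 8 and above a floor on mean CPM, which left 10224. Of these 8 comparisons 4 are in 92-1 and 2 in each other line, so the points share cell lines, and r is a description. BLOC1S1 was left out, since it was not tested with IDE196. Among the other 9 genes the closest pair was RAB27A with HPS4 (r = 0.959), followed by RAB38 with RAB32 (r = 0.956), RAB38 with HPS4 (r = 0.907) and MYO5A with HPS5 (r = 0.904). HPS1 with HPS4 had r = 0.84. MLPH with HPS5 (r = 0.0785) and MLPH with MYO5A (r = 0.177) were the least alike. Outside the set, the genes most like RAB27A were CABLES1 and TMEM229B (r = 0.99 for both), LYPD6 was among those most like MYO5A (r = 0.984), and those most like HPS1 were BCAN and EDNRB (r = 0.982 for both). RAB38 was most like TMEM51 (r = 0.986) and TYRO3 (r = 0.985), RAB32 most like EMP2 (r = 0.989) and ATP10A (r = 0.986), and HPS4 most like ALDH1B1 (r = 0.988) and NAXD (r = 0.987). For HPS5 they were MTURN (r = 0.983) and SERINC2 (r = 0.981), for MLPH CLDN15 (r = 0.972) and TMEM18 (r = 0.967), and for LYST GREB1 (r = 0.96) and TMEM18 (r = 0.932).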

How the data were processed

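The authors deposited counts of reads per gene, raw and not normalised, with 1 unstranded and 2 stranded columns per library in the layout of STAR's gene counts. The unstranded column was used, since 49.7% to 50.1% of stranded reads lay on the first strand. Poly-A RNA was sequenced, per the labels' protocols. The submitters' processing notes name the build hg38 and limma. The annotation is not given in the sources used here. Identifiers matched GENCODE 29 without version for 58597 of 58870 genes, which gave symbols, GRCh38 coordinates and exon lengths. The files also list 92 spike-in controls with 0 reads, which were left out. Promoter sequences are RefSeq's for GRCh38.p14.

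Each experiment of 12 libraries was fitted with edgeR 4.0.16 (R 4.3.3): filterByExpr, TMM, quasi-likelihood F-tests with the 4 groups as terms, and Benjamini-Hochberg adjustment over all tested genes, called under 0.05. Differences among lines and DMSO levels came from 36 libraries, and differences between drugs and DMSO sets from the 24 libraries of 92-1. Depth was 11394088 to 32317711 reads in genes, and reads are not independent molecules. In MP41 at 4 h the 3 same-numbered FHT-1015 and DMSO pairs deviated together (r of 0.124 to 0.292), which the labels do not state as a pairing; at 24 h 1 of 3 did not reach 0.1. Alternatives included DESeq2 1.42.0 (a likelihood-ratio test among lines), limma-voom 3.58.1, other scalings and filters, and leaving out each library. Scripts were tested on simulated data.

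All 10 members are named by role. Genes of the 5 pathway lists are named where called in 1 direction in the 3 lines, or as the largest rise or fall with IDE196. For each member but BLOC1S1 the 2 genes most alike in pattern are named, except 1 that is not reported here. The members, the lists (the pathway lists and the markers of melanocytes, leukocytes, endothelium, fibroblasts and epithelium) were chosen with earlier results of these data known.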

Additional observations from a re-analysis of the deposited data

Results flagged for a closer look

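Effects of FHT-1015 differed between 4 and 24 h (difference of log2 fold changes, edgeR adjusted p under 0.05). In 92-1 these differences were -0.98 for MYO5A, -1.50 for RAB38, -1.45 for RAB32, -0.49 for HPS1, -0.45 for HPS4 and -0.58 for HPS5. In MEL202 they were -1.20 for RAB27A, -3.26 for MLPH and -1.28 for RAB38. In MP41 they were -2.30 for MLPH, -1.32 for RAB38, -1.67 for RAB32 and -0.77 for HPS4. The effect of IDE196 differed between the times by 0.51 for HPS1 and 1.01 for HPS5.

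The FHT-1015 effect at 24 h differed among the lines for MLPH (edgeR adjusted p 2.1e-10), HPS5 (0.0159), MYO5A (0.0189) and LYST (0.0492).

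The FHT-1015 and IDE196 effects in 92-1 differed at 4 h by -1.43 for RAB27A, -1.27 for MLPH, -0.90 for MYO5A, -0.52 for RAB38, -0.65 for RAB32, -1.25 for HPS4, -0.42 for HPS5 and -0.56 for LYST. At 24 h they differed by -2.14 for RAB27A, -2.36 for MYO5A, -2.09 for RAB38, -1.98 for RAB32, -1.17 for HPS1, -1.57 for HPS4 and -2.01 for HPS5.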

How the results depend on the processing

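Of 762 fold changes recomputed under alternatives other than leaving out a library, 707 kept direction and side of the threshold, 23 lost a call, 19 gained one and 13 changed sign. All sign changes were small and uncalled. They were, in 92-1 at 4 h, HPS5 by library size alone (0.0084) and with offsets for exon length (0.014) and BLOC1S1 by voom (-0.21). In MEL202 at 4 h they were RAB32 by voom (0.029) and with length offsets (0.0089), MYO5A by voom (-0.051) and HPS1 by library size (0.022). In MP41 they were RAB32 at 4 h with length offsets (-0.053) and HPS5 at 24 h with a replicate block (0.0025). With IDE196 they were HPS1 (-0.022) and LYST (0.015) by voom at 4 h and LYST at 24 h by library size (0.017) and with all 48 libraries in 1 fit (0.018). Length offsets were chosen after seeing the data.

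Counts of called members moved by over 1.5 times as follows. With all 48 libraries fitted together, 92-1 at 4 h had 3 lower, MEL202 1 lower at 4 h, 1 higher at 24 h and 6 differing between times, IDE196 0 higher at 4 h, 1 differing among lines at 4 h, and 4 differing between drugs at 4 h. By voom there were 1 higher in MEL202 at 24 h, 3 lower in MP41 at 4 h, 7 differing between times in MP41, and 2 and 9 differing among lines at 4 and 24 h. On the 6 libraries compared alone there were 1 higher in MEL202 at 24 h, 2 lower in MP41 at 4 h and 2 higher with IDE196 at 4 h. DESeq2 called 1 lower in MEL202 and 1 in MP41 at 4 h. Without a filter 1 was lower in MP41 and 2 were higher with IDE196 at 4 h. With length offsets LYST was the 1 lower with IDE196 at 24 h. The cause was not tested.

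Leaving out each library, the ranges of counts were 0 to 2 lower in MP41 at 4 h, 2 to 4 higher with IDE196 at 4 h, 0 to 1 and 2 to 5 differing among lines at 4 and 24 h (2 without 92-1 DMSO 24 h replicate 1, 1 without MEL202 FHT-1015 4 h replicate 3), and 5 to 8 differing between drugs at 4 h. Members lower in all 3 lines at 24 h numbered 4 to 6 over all alternatives. Signs changed for HPS5 in 92-1 at 4 h (-0.10 to 0.043) and MP41 at 24 h (-0.25 to 0.10), BLOC1S1 in 92-1 at 4 h (-0.0038 to 0.43) and 24 h (-0.26 to 0.67) and in MEL202 at 4 h (-0.95 to 0.34) and 24 h (-0.64 to 0.043), in MEL202 at 4 h for RAB32 (-0.41 to 0.038), MYO5A (-0.11 to 0.51), HPS1 (-0.14 to 0.11) and LYST (-0.60 to 0.028), RAB38 in MP41 at 4 h (-0.084 to 0.0052), and with IDE196 for MLPH (-0.20 to 0.43), HPS1 (-0.074 to 0.065) and LYST (-0.17 to 0.13) at 4 h and LYST at 24 h (-0.086 to 0.0063).

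Same-numbered FHT-1015 and DMSO libraries correlated above 0.1 in 10 of 18 pairs (-0.51 to 0.71), and the numbers were not taken to pair them in 92-1 and MEL202. In MP41, and in 92-1 at 4 h, each FHT-1015 library correlated best with the DMSO library of its own number, which is a hint from the data and not from the design, and the block left 0 members called in MP41 at 4 h. With a replicate block MYO5A in MP41 at 24 h was -0.56 and lost its call (edgeR adjusted p 0.0652). No paired analysis was run for IDE196 because its arms share no replicate numbers. MLPH ran from highest to lowest in replicate order in each group of that experiment. At 24 h it went from 32.4 to 23.0 CPM in DMSO and from 30.1 to 17.3 CPM with IDE196. A pairing by order was not tested.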
